A study of Mus musculus with 20 samples.

Results

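The genes described here encode the enzymes that build heme, together with the mitochondrial carrier Slc25a38, which brings in glycine for the first step. The set was chosen by gene symbol and holds 9 of the 55486 genes listed in the count tables, namely Alas1, Alas2, Alad, Uros, Urod, Cpox, Ppox, Fech and Slc25a38. All 9 were counted in every library and passed the filter on low counts in both tissues. They came from a bulk RNA-seq study of 20 libraries, with 5 vehicle and 5 oxaliplatin libraries from bone marrow and the same numbers from kidney. The animals were C57BL/6 mice, male and female per the methods, and treatment began at an age of 10 weeks. Control mice were injected i.p. with 5% dextrose, and treated mice with 10 mg/kg oxaliplatin, a platinum drug that crosslinks DNA, in 5% dextrose, over 8 weeks. Tibia and femur gave the marrow, which was collected 6 days after dosing ended. No transgene or deletion was carried by any group.

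Heme is made in a chain of steps that starts and ends in the mitochondrion and passes through the cytosol in between. The first step, which joins glycine with succinyl-CoA to give aminolevulinic acid, is run by one of a pair of isozymes: Alas1 in all tissues, where heme itself holds it in check, and Alas2 in red cell precursors, where it is switched on by GATA1 and its translation follows iron. The later enzymes are shared by all cells. Developing red cells in the marrow are the main site of heme synthesis, for hemoglobin, while kidney makes heme for its own mitochondria and cytochromes.

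The stretches below show how the starts of Alas2, Alas1 and Cpox differ in their letters, since the results turn on this isozyme pair and on Cpox. RefSeq windows running from 250 bases before to 50 bases after a gene start (GRCm38.p6) were held for 8 of the 9 members, in 11 windows. Capitals in Alas2 and Cpox mark GATA preceded by A or T and followed by A or G, on either strand (here the opposite one, with a pair in Cpox that overlaps by 1 base). Capitals in Alas1 mark GCGCATG, an arm of the palindrome bound by nuclear respiratory factor 1, which is present on both strands and overlaps itself.
Alas2, chrX:150547167-150547374, plus strand, ending at the first annotated exon: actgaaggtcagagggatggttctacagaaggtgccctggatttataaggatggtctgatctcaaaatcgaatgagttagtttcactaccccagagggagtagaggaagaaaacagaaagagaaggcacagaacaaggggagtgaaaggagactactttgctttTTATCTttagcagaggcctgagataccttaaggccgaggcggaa
Alas1, chr9:106247906-106247935, minus strand: cgcacccaagGCGCATGCGCggcggtcact
Cpox, chr16:58670107-58670136, plus strand: actaaagcgcCTATCTTATCAgtccaagca

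A GATA match was found in 3 of the 11 member windows, of Alas2, Cpox and Uros, and in 29.8% of the 32851 windows of all genes. Both windows of Alas1, and no window of another member, held GCGCATG, on either strand, which 3.91% of all windows held. The Alas1 windows overlap, and the site is the same in both. CACCC, on either strand, was found in 7 of the 11 member windows and in 57.5% of all windows. These are matches of letters, not measured binding.

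Total counts ran from 30660200 to 41140500 per library in marrow and from 24393000 to 30925400 in kidney, and 3 counts corresponded to at most 0.130 CPM, the counts of a gene scaled to a common library size after correction for composition. Marrow libraries carried neutrophil genes (summed 9477 to 26029 CPM) and kidney libraries proximal tubule genes (11999 to 17865 CPM). Transcripts of 4 Y-linked genes were present in all 20 libraries at a summed 77.5 to 173 CPM. The methods name both sexes, yet no library lacked these transcripts, so none was of female tissue alone. A gene was called changed at an adjusted p under 0.05 in edgeR's quasi-likelihood test together with a fold change beyond 1.5.

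Marrow of oxaliplatin-treated mice held less transcript of every member of the pathway except Alas1. Of the 9 genes, 8 fell by the call rule, against 11.8% of the 22363 genes tested that were called lower, 11.6% called higher and 23.3% called in all. The median log2 fold change of the 9 was -1.67, beside -0.04 over all genes tested. The groups did not overlap for 7 of them, against 13.5% of all genes tested lying wholly lower. In bulk tissue, fewer cells of a type and less RNA per cell cannot be told apart, and this holds for each marrow value below. Beside the members, 13 of the 14 erythroid marker genes fell (summed 31163 to 53937 CPM in vehicle mice and 4194 to 10540 CPM in oxaliplatin mice). The exception was Gata1, which was not called (log2 fold change -0.22, edgeR adjusted p = 0.43) and whose groups overlapped. All 5 B cell markers fell, and all 5 adipocyte markers rose, from 19.3 to 50.7 CPM summed up to 252.3 to 1699 CPM. No neutrophil marker of 7 was called by edgeR or by DESeq2, and 0 had an unadjusted p under 0.05 (summed 18678 to 22842 CPM in vehicle and 9477 to 26029 CPM in treated mice). The part of these cell types in the values of the members was not tested.

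**Figure D1:**
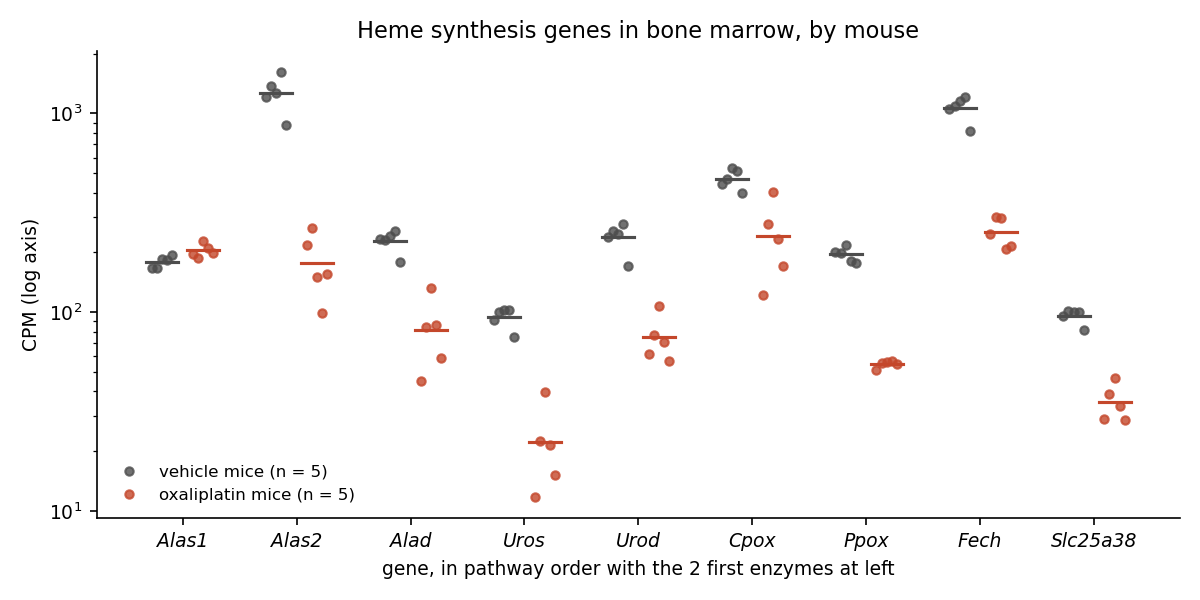
Normalised CPM (log axis) of the 9 heme synthesis genes in bone marrow, with a point for each mouse and a dash for each group mean (5 vehicle mice in grey, 5 oxaliplatin mice in red). The treated mice lie wholly below the vehicle mice for 7 genes, overlap them at the top for Cpox, and lie level with or just above them for Alas1.

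The 2 isozymes of the first step parted. Alas2 measured 1208, 1377, 1261, 1617 and 876 CPM in the 5 vehicle mice and 218, 264, 151, 99.2 and 155 CPM in the 5 oxaliplatin mice. The highest treated mouse was thus far below the lowest vehicle mouse. Alas2 fell by 2.84 on the log2 scale (SE 0.25, 7.14-fold lower, edgeR adjusted p = 3.7e-06), the steepest drop among the members.

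Alas1, the isozyme of all other tissues, measured 167, 167, 185, 184 and 193 CPM in vehicle marrow and 197, 187, 229, 211 and 199 CPM in treated marrow. The ranges overlapped only through a treated mouse at 187 CPM and a vehicle mouse at 193 CPM. Its log2 fold change was 0.19 (SE 0.09, edgeR adjusted p = 0.11), so it was not called, and it was the only member with a value above 0. Its adjusted p was below 0.05 with DESeq2 (log2 fold change 0.23, adjusted p = 0.044) and with library size alone (0.34, adjusted p = 0.0094), each time at less than 1.5-fold.

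Within each library, Alas2 was set against Alas1 as the difference of their log2 CPM, a quantity that does not depend on how the library was scaled. In the 5 vehicle marrows it was 2.86, 3.04, 2.77, 3.14 and 2.18, and in the 5 treated marrows 0.14, 0.50, -0.60, -1.09 and -0.36. Every vehicle mouse had more Alas2 than Alas1 counts, while 3 of the 5 treated mice had fewer. The mean went from 2.80 ± 0.37 (SD, n = 5) to -0.28 ± 0.62 (SD, n = 5), a difference of -3.08 (exact two-sided permutation test, p = 0.0079, the smallest that the divisions of 10 mice can give, and 0.016 after Benjamini-Hochberg adjustment over the 2 tissues).

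**Figure D2:**
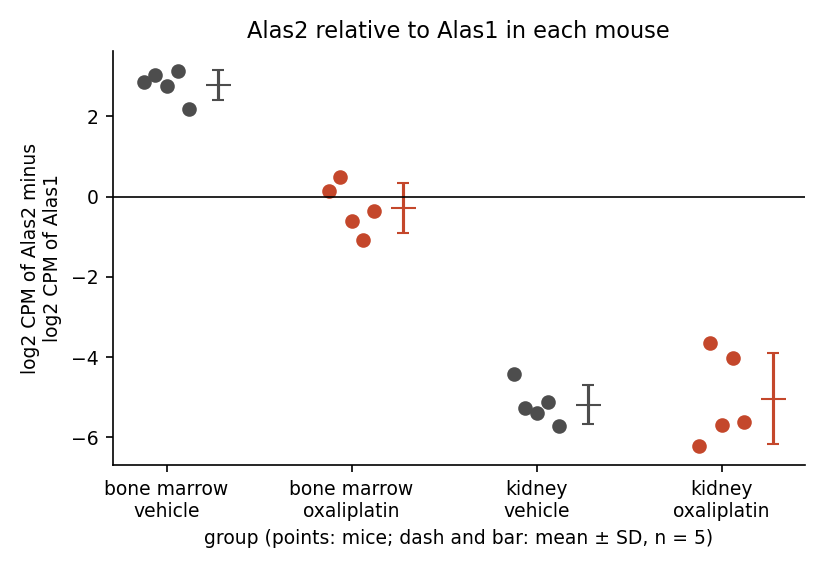
Log2 CPM of Alas2 minus log2 CPM of Alas1 in each mouse (points) with the mean ± SD of each group (n = 5). Vehicle marrow sits between 2.18 and 3.14 and treated marrow between -1.09 and 0.50, while both kidney groups sit below -3.6.

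The cytosolic enzymes followed. Alad, which condenses aminolevulinic acid into the first pyrrole, measured 233, 231, 243, 258 and 178 CPM in vehicle marrow and 45.1, 84.8, 132, 86.3 and 59.0 CPM in treated marrow. It fell by 1.49 on the log2 scale (SE 0.24, edgeR adjusted p = 0.00043), and the lowest vehicle mouse stayed above the highest treated mouse. Uros, which closes the tetrapyrrole ring, measured 91.3, 100.03, 103, 103 and 75.1 CPM in vehicle marrow and 11.8, 22.5, 39.7, 21.5 and 15.3 CPM in treated marrow. It fell by 2.09 (SE 0.27, edgeR adjusted p = 0.00012), with the treated mice 3.36-fold apart among themselves. Urod, which trims the side chains of the ring, went from 238 ± 40.6 CPM (SD, n = 5) to 74.8 ± 19.7 CPM (SD, n = 5), a fall of 1.67 (SE 0.18, edgeR adjusted p = 1.2e-05).

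Of the 8 genes that fell, Cpox, which oxidises coproporphyrinogen back in the mitochondrion, had the smallest change. Cpox measured 441, 469, 532, 515 and 396 CPM in vehicle marrow and 122, 278, 404, 235 and 171 CPM in treated marrow. A single treated mouse, mouse 3, reached into the vehicle range, and the other 4 lay below it. Cpox fell by 0.96 on the log2 scale (SE 0.26, 1.95-fold lower, edgeR adjusted p = 0.012), and this call was lost with no filter on low counts (adjusted p = 0.058) and when the test was made against a change of 1.5-fold (adjusted p = 0.16).

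Ppox, which makes protoporphyrin, was the most even among the treated mice. Vehicle marrow held 201, 199, 219, 181 and 177 CPM and treated marrow 51.0, 55.8, 56.0, 56.6 and 55.0 CPM. It fell by 1.83 (SE 0.08, edgeR adjusted p = 2.9e-08), and the treated mice differed by no more than 1.11-fold from lowest to highest.

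Fech, which inserts iron into protoporphyrin to give heme, measured 1057, 1092, 1159.5, 1208 and 817 CPM in vehicle marrow and 246, 303, 297, 209 and 215 CPM in treated marrow. It fell by 2.07 on the log2 scale (SE 0.15, 4.20-fold lower, edgeR adjusted p = 5.9e-07), second among the pathway's mitochondrial enzymes only to Alas2. Slc25a38, the glycine carrier, went from 96.0 ± 8.20 CPM (SD, n = 5) to 35.5 ± 7.55 CPM (SD, n = 5), a fall of 1.44 (SE 0.13, edgeR adjusted p = 4.9e-06).

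The treated marrows did not rank alike for all members. Oxaliplatin mouse 3 was the highest of the 5 for Alad, Uros, Urod, Cpox and Slc25a38, at 57.7, 42.1, 45.1, 85.8 and 48.8% of the vehicle means. For Alas2 it stood at 11.9%, while mouse 2 was highest at 20.9% and mouse 4 lowest at 7.83%. Klf1, an early erythroid transcription factor, was likewise highest in mouse 3, at 62.5%, and was lowest in mouse 1, at 12.0%. The globin gene Hbb-bs had the order of Alas2, with 23.8% in mouse 2 and 7.09% in mouse 4.

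After each group mean was taken out, Alas2 correlated over the 10 marrow libraries at r = 0.99 with Hbb-bs and Hba-a1. With Klf1 it stood at r = -0.21 and with Gata1 at r = -0.006. Alad, Uros and Cpox correlated with Klf1 at r = 0.98 each and with Hbb-bs at r = -0.12, -0.09 and -0.06. Fech lay between these, at r = 0.45 with Klf1 and 0.72 with Hbb-bs. Among the members, Alad and Uros were most alike (r = 0.99), and Alas2 was most like Fech (r = 0.74) and least like Alas1 (r = -0.56). The points are libraries whose genes share their scaling, so these values describe the 10 libraries and were not tested.

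**Figure D3:**
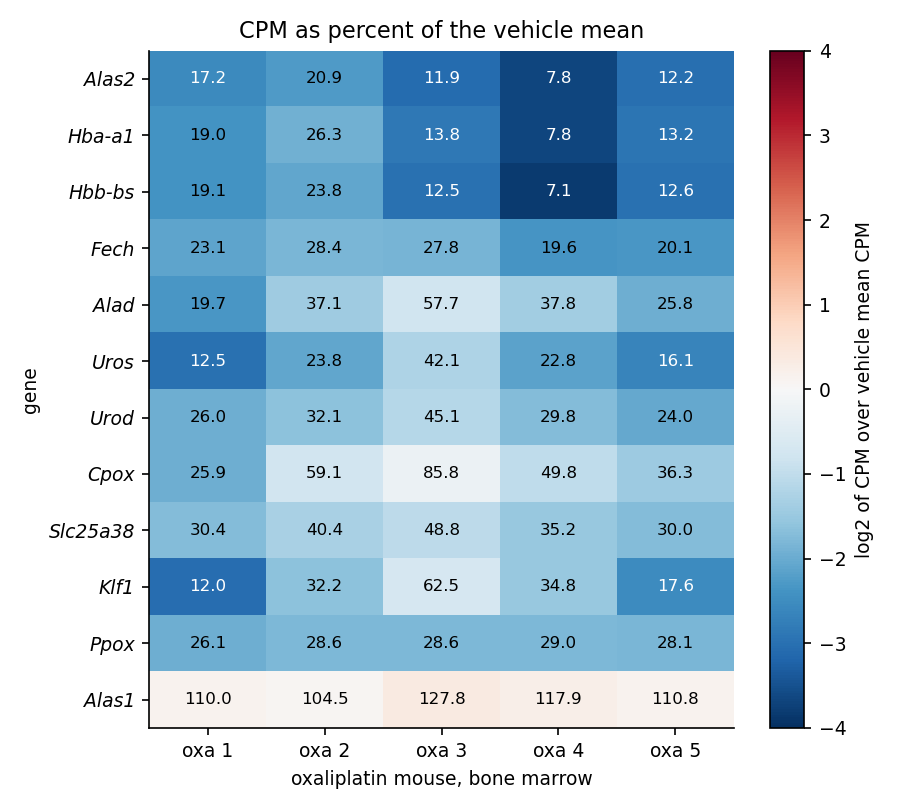
CPM in each of the 5 oxaliplatin marrows as percent of the vehicle mean, with colour giving the log2 of that ratio, for the members and 3 erythroid marker genes. The Alas2 row rises and falls with Hba-a1 and Hbb-bs (highest in mouse 2), the Alad, Uros, Urod, Cpox, Slc25a38 and Klf1 rows are each highest in mouse 3, and the Ppox and Alas1 rows are nearly flat.

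Among the vehicle marrows, mouse 5 was the lowest for 8 members and the highest for Alas1. It held 876 CPM of Alas2 and 817 CPM of Fech, and it was also the lowest for Hbb-bs (7541 CPM) and Slc4a1 (3953 CPM), the red cell anion exchanger. All 8 marrow calls held when it, or any other single marrow library, was left out.

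In kidney the pathway stood at another balance. In vehicle mice, Alas1 was 2.35-fold higher in kidney than in marrow (log2 difference 1.24, SE 0.17, edgeR adjusted p = 4.1e-07), and Alas2 was 113-fold lower (log2 difference -6.82, SE 0.45, edgeR adjusted p = 1.8e-11). Of the 9 members, 8 were called different between the tissues, against 72.9% of the 24321 genes tested (34.6% higher and 38.3% lower in kidney). The exception, Alad, was 1.48-fold lower in kidney (edgeR adjusted p = 0.013), under the 1.5-fold threshold.

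Per kilobase of exon, vehicle marrow was led by Alas2 (528 ± 112 CPM per kb, SD, n = 5), with no overlap with Alad at 122 ± 16.1 CPM per kb. Alad, Urod, Fech and Cpox followed with overlapping ranges between neighbours, then Ppox apart from both sides, then Slc25a38, Alas1 (29.0 ± 1.89 CPM per kb) and Uros, again overlapping. Vehicle kidney was led by Alad (61.4 ± 3.31 CPM per kb) and Alas1 (50.8 ± 14.8 CPM per kb), whose ranges overlapped, and ended with Alas2 at 3.45 ± 0.49 CPM per kb, apart from its neighbour Uros at 6.06 ± 0.67 CPM per kb. In treated marrow Alas2 still led (73.9 ± 26.8 CPM per kb) but its range met that of Alad, and Alas1 had moved from rank 8 to rank 4. With the length of the main coding transcript in place of all exons, Alas2 kept rank 1 in vehicle marrow and rank 9 in vehicle kidney, and Alas1 was at rank 9 in vehicle marrow and rank 1 in vehicle kidney.

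Kidney showed fewer calls after oxaliplatin. Cpox alone was called, out of 9, against 11.5% of the 19293 genes tested that were called in either direction, 3.81% lower and 7.68% higher. The median log2 fold change of the members was -0.23, beside 0.02 over all genes tested. Cpox measured 146, 129, 136, 137 and 148 CPM in vehicle kidney and 85.0, 85.6, 84.3, 77.8 and 77.5 CPM in treated kidney. The groups stood far apart and each was tight, and Cpox fell by 0.76 on the log2 scale (SE 0.06, 1.69-fold lower, edgeR adjusted p = 3.6e-07). The call was lost when the test was made against a change of 1.5-fold rather than of 0 (adjusted p = 0.054).

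A further 4 members had an adjusted p under 0.05 with a change of less than 1.5-fold, where 29.4% of all kidney genes had such a p at any fold. Fech was 1.35-fold lower (223 ± 10.4 to 165 ± 10.1 CPM, SD, n = 5, edgeR adjusted p = 0.00011) and Slc25a38 1.26-fold lower (44.8 ± 3.91 to 35.6 ± 4.94 CPM, SD, n = 5, edgeR adjusted p = 0.012). Fech, Slc25a38 and Cpox were the members whose kidney groups did not overlap, against 11.0% of all genes lying wholly lower. Alad was 1.16-fold lower (edgeR adjusted p = 0.048), while Urod and Ppox had log2 fold changes of -0.18 and -0.07 (adjusted p = 0.088 and 0.52). With library size alone as the scaling, Alad had a log2 fold change of -0.089 (adjusted p = 0.34) and Slc25a38 of -0.20 (adjusted p = 0.065). The Alad p also rose above 0.05 without vehicle mouse 1, 3, 4 or 5 or treated mouse 4 or 5, to at most 0.14.

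**Figure D4:**
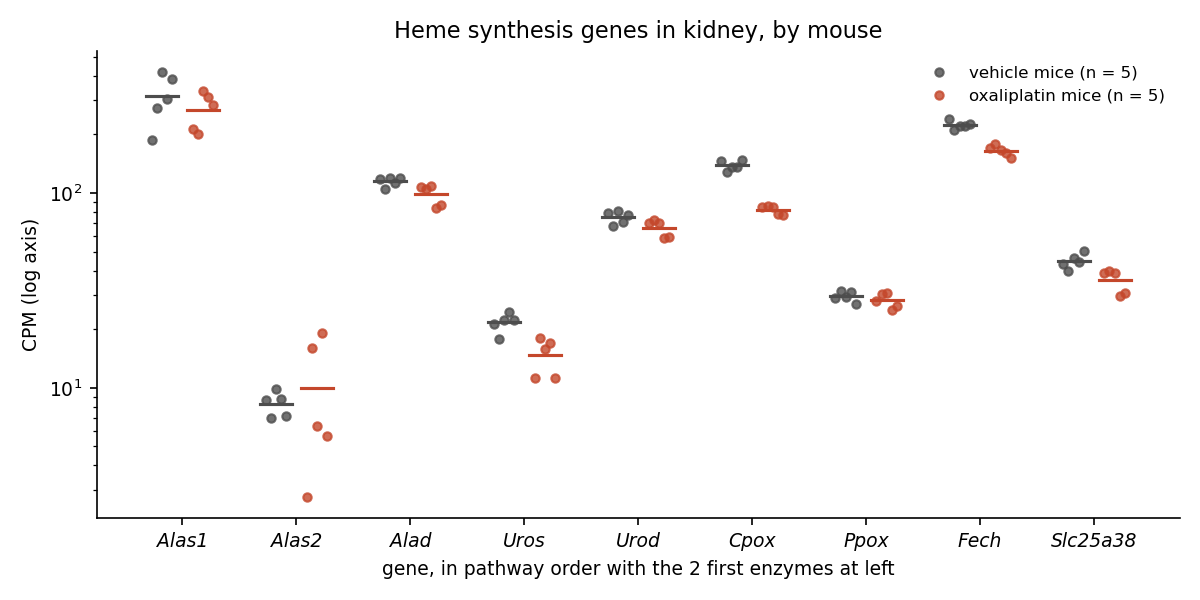
Normalised CPM (log axis) of the 9 heme synthesis genes in kidney, with a point for each mouse and a dash for each group mean (5 vehicle mice in grey, 5 oxaliplatin mice in red). Only Cpox, Fech and Slc25a38 have treated mice wholly below the vehicle mice, and the treated Alas2 points spread from 2.76 to 19.1 CPM.

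Kidney Alas2 was low and, after treatment, uneven. It measured 8.66, 7.01, 9.85, 8.73 and 7.17 CPM in vehicle kidney and 2.76, 15.9, 6.40, 19.1 and 5.64 CPM in treated kidney. Treated mice 2 and 4 lay above all vehicle mice and the other 3 below all of them. The log2 fold change was 0.27 (SE 0.49, edgeR adjusted p = 0.72), and it was -0.10 without treated mouse 4.

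The red cell genes of the same kidney libraries stood in a like order. Hbb-bs measured 11.1, 199, 63.0, 185 and 10.4 CPM in the 5 treated kidneys, beside 86.3 to 132 CPM in vehicle kidneys. Treated mice 2 and 4 stood above every vehicle kidney for Hbb-bs. Over the 10 libraries, with group means removed, kidney Alas2 correlated at r = 0.90 with Hbb-bs and at r = 0.91 with Hba-a1. The erythroid list as a whole summed to 356 to 531 CPM in vehicle and 162 to 854 CPM in treated kidney. Of its 9 tested members 1 was called, against 11.5% of all kidney genes. It was Slc4a1 (log2 fold change 0.69, edgeR adjusted p = 0.017), which is also the anion exchanger of the collecting duct. The part of red cells or their precursors in the kidney Alas2 value was not tested.

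Uros was the other member that went with these genes in kidney. It measured 21.4, 17.9, 22.4, 24.4 and 22.3 CPM in vehicle kidney and 11.2, 17.98, 15.9, 17.0 and 11.2 CPM in treated kidney, with treated mice 2, 4 and 3 in the lead. Its correlation with Hbb-bs, taken as above, was r = 0.93. Uros had a log2 fold change of -0.56 (SE 0.13, 1.48-fold lower, edgeR adjusted p = 0.0049), just inside the 1.5-fold threshold, and was called when vehicle mouse 2 (-0.63) or treated mouse 2 (-0.65), 3 (-0.59) or 4 (-0.61) was left out.

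Alas1 was the most variable member among vehicle kidneys in absolute terms. It measured 187, 274, 418, 304 and 385 CPM in vehicle kidney and 213, 199.98, 334, 312 and 282 CPM in treated kidney, with ranges that overlapped almost wholly. The log2 fold change was -0.23 (SE 0.23, edgeR adjusted p = 0.51). The Alas2 to Alas1 difference in log2 CPM was -5.19 ± 0.48 (SD, n = 5) in vehicle and -5.04 ± 1.14 (SD, n = 5) in treated kidney, a difference of 0.14 (exact two-sided permutation test, p = 0.83, adjusted p = 0.83 over the 2 tissues).

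Whether the tissues differed in their response was tested as an interaction in all 20 libraries. The change of 7 of the 9 members differed between kidney and marrow, with the fold change higher in kidney for each, against 10.8% of the 24321 genes tested in that direction and 23.7% in either. The gap in log2 fold change, kidney minus marrow, was 3.05 for Alas2 (SE 0.52, edgeR adjusted p = 0.00017) and 1.70 for Ppox (SE 0.12, edgeR adjusted p = 1.1e-09). For Cpox, called lower in both tissues, it was 0.12 (SE 0.29, edgeR adjusted p = 0.80), and for Alas1, called in neither, -0.48 (SE 0.23, edgeR adjusted p = 0.12). The Alas1 gap was past the threshold without vehicle kidney 1 (-0.62, adjusted p = 0.024), the mouse with the lowest kidney Alas1.

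**Figure D5:**
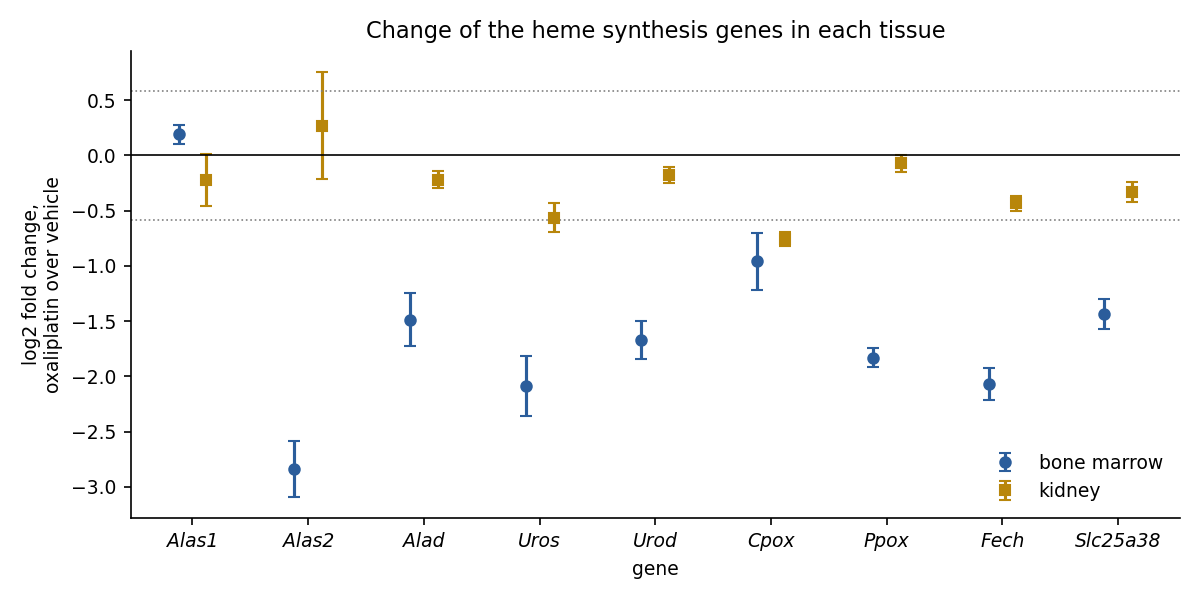
Log2 fold change of each member, oxaliplatin over vehicle, with its SE (error bar) in bone marrow (blue circles) and kidney (gold squares), from fits to 10 libraries each. Dotted lines mark a 1.5-fold change in either direction, the kidney points lie between these lines except for Cpox, with Uros (-0.56) close to the lower line, and the marrow points lie below the lower line except for Alas1.

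The listed partners of the pathway, in iron and glycine supply, export and assembly, moved in a mixed way in marrow. Of 16 such genes 9 fell and 2 rose, against 11.8% and 11.6% of all genes tested. The largest fall was that of Slc6a9, the glycine transporter of the cell surface, from 86.3 ± 11.3 to 12.9 ± 3.18 CPM (SD, n = 5, log2 fold change -2.75, edgeR adjusted p = 2.1e-07). Slc25a37, the mitoferrin that feeds iron to Fech in red cells, went from 1589 ± 166 to 331 ± 62.1 CPM (SD, n = 5, log2 fold change -2.26, edgeR adjusted p = 2.9e-07), while its relative of other tissues, Slc25a28, had a log2 fold change of -0.16 (edgeR adjusted p = 0.28). The difference between the 2 mitoferrins was not tested. Abcb10, which holds mitoferrin in place, fell by 2.10, and Glrx5, of iron-sulfur cluster assembly, by 1.14. Pgrmc1, a heme-binding partner of Fech, rose from 29.8 ± 4.18 to 55.7 ± 7.83 CPM (SD, n = 5, log2 fold change 0.90, edgeR adjusted p = 9.8e-05), and Shmt2, which interconverts serine and glycine, rose by 0.59 on the log2 scale.

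In kidney 2 of these 16 partners were called, both lower, where 3.81% of all genes were called lower and 11.5% in either direction. Slc6a9 fell by 1.21 on the log2 scale (edgeR adjusted p = 0.00063) and the cysteine desulfurase Nfs1 by 0.70 (edgeR adjusted p = 4.2e-05). The median over the 16 was -0.82 in marrow and -0.37 in kidney.

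Of 9 genes of heme breakdown and transport, 2 fell and 1 rose in marrow, where 23.3% of all genes tested were called in either direction. Blvrb, the biliverdin reductase abundant in red cells, fell by 1.48 on the log2 scale (edgeR adjusted p = 2.8e-05), Abcg2, a porphyrin exporter, fell by 0.88, and the transporter Flvcr2 rose by 0.94 from 1.77 CPM. In kidney, where 11.5% of all genes were called, edgeR called 0 of the 9 and DESeq2 1. An unadjusted p under 0.05 was found for 6, and an adjusted one for 2, Abcg2 and Slc46a1, against 29.4% of all kidney genes. Hmox1, the heme-degrading oxygenase, measured 38.2, 113, 42.1, 126 and 38.7 CPM in treated kidneys and 26.5 to 45.0 CPM in vehicle kidneys (log2 fold change 1.09, edgeR adjusted p = 0.089). Its high mice were 2 and 4, as for Alas2.

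Among heme sensors and iron regulators, the heme-regulated kinase Eif2ak1 fell in marrow (251 ± 29.7 to 103 ± 13.9 CPM, SD, n = 5, log2 fold change -1.29, edgeR adjusted p = 3.6e-06). Nr1d1, a clock repressor that binds heme, rose in both tissues, by 1.24 on the log2 scale in marrow (edgeR adjusted p = 0.00013) and by 1.38 in kidney (edgeR adjusted p = 0.020). In vehicle kidney Nr1d1 measured 92.6, 60.4, 43.8, 31.6 and 23.7 CPM in mice 1 to 5, falling with mouse number, and in treated kidney 105 to 158 CPM. Alas1 in the same vehicle kidneys measured 187, 274, 418, 304 and 385 CPM. The relation of Nr1d1 to Alas1 was not tested. The methods give no time of day for collection. Eif2ak1 and Nr1d1 were the 2 of 6 listed sensors called in marrow, against 23.3% of all genes, and Nr1d1 the 1 of 6 called in kidney, against 11.5%.

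Of 6 known regulators of Alas1 outside red cells, 4 passed the filter in marrow and 2 were called, against 23.3% of all genes tested. Nrf1, which encodes nuclear respiratory factor 1, fell by 0.75 on the log2 scale (118 ± 2.81 to 70.5 ± 3.75 CPM, SD, n = 5, edgeR adjusted p = 6.2e-06), and the coactivator Ppargc1a rose by 0.93 from a level of 0.57 CPM (edgeR adjusted p = 0.046). In kidney 0 of the 6 was called by edgeR or DESeq2, against 11.5% of all genes called by edgeR. The only 3 with an unadjusted p under 0.05 also had an adjusted p under 0.05 at less than 1.5-fold. Of all kidney genes, 29.4% had such an adjusted p at any fold. Ppargc1a was 87.3 ± 4.93 CPM in vehicle and 123 ± 10.5 CPM in treated kidney (SD, n = 5, log2 fold change 0.49, edgeR adjusted p = 6.9e-05), under 1.5-fold but wholly higher than the vehicle mice, as 9.69% of all kidney genes were. Hnf4a, a transcription factor of liver and proximal tubule, went from 1446 ± 50.9 to 1124 ± 112 CPM (SD, n = 5, log2 fold change -0.36, edgeR adjusted p = 0.0021), wholly lower than the vehicle mice, as 11.0% of all kidney genes were. The insulin-responsive factor Foxo1 had a log2 fold change of 0.25 (edgeR adjusted p = 0.039), with overlapping groups.

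Some members share exon sequence with neighbours, and strand use in the counting was not given in the sources used here. Ppox shares 791 bases with B4galt3, Alas1 465 with an antisense transcript, Alas2 311 with Apex2 and Cpox 204 with Gpr15. In marrow these neighbours measured 43.5, 0.41, 31.3 and 0.53 CPM in vehicle mice, each below its member, and Apex2 fell by 0.87 on the log2 scale and B4galt3 by 0.60. In kidney, Apex2 measured 15.1 CPM in vehicle and 15.5 CPM in treated mice, above its member Alas2 at 8.28 and 9.97 CPM. B4galt3 measured 22.4 CPM in vehicle kidney beside 29.5 CPM for Ppox, and the neighbours of Alas1 and Cpox 0.03 and 0 CPM. The part of neighbour reads in the member counts, kidney Alas2 among them, was not tested.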

How the data were processed

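Bulk RNA-seq of bone marrow and kidney was available as raw counts per gene. The deposited counts were made by the authors from reads aligned with STAR, of which the methods count uniquely aligned, unambiguous ones. The submitters' processing notes also name featureCounts and Salmon. Library chemistry is described in 2 ways, SMARTer in the methods and rRNA depletion with random priming in the sample records, and strand use was not given in the sources used here.

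Of 55774 lines in each table, 287 repeated identifiers and 1 line with missing values were left out. Genes were filtered with filterByExpr (minimum count 10), scaled by TMM and tested per tissue with edgeR 4.0.16 (robust quasi-likelihood test, R 4.3.3, Benjamini-Hochberg over all genes tested), and over 20 libraries for tissue differences and the interaction. Scripts were tested on simulated data. DESeq2 1.42.0 served as an alternative. Log2 CPM used a prior count of 2, and CPM per kilobase the GENCODE M21 exon union. Replicates are separate libraries that the labels number within a group. They were taken as 1 mouse each, which the labels do not state, so p-values measure the spread between these libraries. Every pair of replicates differed by more than sampling noise (chi-square per degree of freedom of 6.83 or more). The members and lists were chosen with earlier results of these data known. Named genes were the members, the lists, and for Alas1 and Alas2 the 5 genes with the highest r after group means were removed (mean log2 CPM of at least 1). Sequences are from RefSeq (GRCm38.p6).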

Additional observations from a re-analysis of the deposited data

Results flagged for a closer look

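In the 5 vehicle marrows, Slc25a38 measured 81.8 CPM in mouse 5, far from the other 4 by Dixon's criterion. This was 1 of 36 groups examined, and chance alone would give about 1 in 20. The same mouse was the lowest vehicle marrow for 7 other members.

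The change with oxaliplatin differed between kidney and marrow for 7 members, tested as an interaction with edgeR. The log2 change in kidney minus that in marrow was 3.05 for Alas2, 1.19 for Alad, 1.45 for Uros, 1.42 for Urod, 1.70 for Ppox, 1.57 for Fech and 1.04 for Slc25a38.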

How the results depend on the processing

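Of 906 values recomputed under other settings, 879 stayed the same. For a gene or a difference this meant the same direction and side of the threshold. For a count of genes it meant a value within 1.5-fold of the main count. With the test made against a 1.5-fold change, 2730 genes in marrow and 454 in kidney were called in place of 5221 and 2216, and 0 members in kidney. Leaving out 1 library at a time gave 4725 to 5727 genes in marrow, 1761 to 2424 in kidney, 8 members in marrow and 1 to 2 in kidney, the second being Uros. For Alas2 minus Alas1 in kidney, leaving out 1 library gave -0.21 to 0.44, and the value reversed without treated mouse 2 (-0.21) or 4 (-0.11). Over single left-out libraries kidney Alas2 ran from -0.096 (without treated mouse 4) to 0.51, kidney Ppox reversed with library size alone (0.056), and the Cpox interaction, at -0.093 to 0.42 over left-out libraries, was below 0 without marrow oxaliplatin mouse 1 (-0.093) or 5 (-0.026). The causes were not tested.

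Library size alone moved the median log2 change of all genes from -0.04 to 0.11 in marrow and from 0.02 to 0.16 in kidney, while calls in the higher direction went from 49.6 to 63.4% of all calls in marrow and from 66.8 to 82.7% in kidney. The number of members called in marrow was 7 to 8 under all these settings. The vehicle difference of Alad between tissues passed 1.5-fold under 6 settings, among them DESeq2 (-0.62).

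Replicate numbers showed no clear pairing of vehicle with oxaliplatin libraries: correlations of same-numbered deviations were -0.12 to 0.23 in marrow and -0.15 to 0.08 in kidney, and 2 of 10 libraries in each tissue were most like their own number. Between marrow and kidney libraries of the same group and number they were -0.09 to 0.21, with 2 of 10 over 0.1. The labels do not state whether such libraries came from the same mouse. The fit over 20 libraries took them as independent. With the replicate block, 4968 genes were called in marrow and 2017 in kidney. Under the block, kidney Alas2 was -0.0035, and Alas2 minus Alas1 in marrow was -3.08 with an exact sign-flip p of 0.0625, the smallest that 5 pairs can give. Kidney Alas2, at 77 to 545 counts a library, was the member with the fewest counts.

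The order of levels per kilobase with another transcript length was added after seeing the data. Here 5 libraries per group limit the precision, and counts of reads are not independent molecules.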

Other observations

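The genes whose levels followed Alas2 most closely in marrow, over 10 libraries after group means were removed, were Hbb-bs (r = 0.99), Hba-a1 (r = 0.99), Hbb-bt (r = 0.99), Hba-a2 (r = 0.97) and the olfactory receptor gene Olfr632 (r = 0.95), out of 14649 genes compared. Those most like Alas1 in marrow were Vps45 (r = 0.95), Mlec, Mettl3, Fastkd1 and Bri3bp (r = 0.90), none of which is on a list used here.

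In kidney, the genes most like Alas2 were Mrvi1 (r = 0.96), the mitoferrin gene Slc25a37 (r = 0.95), Parp8, Pdgfd and Slc16a4 (r = 0.94), out of 13635. Slc25a37 measured 29.6, 47.0, 38.5, 46.5 and 33.2 CPM in the treated kidneys, highest in mice 2 and 4 as Alas2 was, and its log2 fold change was -0.03 (edgeR adjusted p = 0.86). Those most like Alas1 in kidney were Mchr1 (r = 0.98), Zfp35, Zfp592, Srsf6 and Resf1 (r = 0.89). These are the highest of many correlations among few libraries, given as a description with no test.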
